A study of Mus musculus with 20 samples.

Results

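The 10 transcription factors of the epidermal lineage described here, Trp63, Gata3, Cebpa, Klf4, Ovol1, Grhl1, Grhl3, Zfp750, Prdm1 and Hopx, were followed across the mouse skin tissues. They were taken by gene symbol, and all 10 were among the 22090 genes of the count table. Rora and Pou2f3, a nuclear receptor and a POU factor that are also made in keratinocytes, were set beside them. RNA-seq had been done on 20 tissues, which the labels divided into 8 normal skin (NS), 8 actinic keratosis (AK, a precancerous lesion) and 4 cutaneous squamous cell carcinoma (cSCC). All came from the back skin of 8 female mice of the hairless strain SKH-1, which were 7 months old when the irradiation course began, and of these 4 were exposed to simulated solar ultraviolet light and 4 were not. Irradiated mice gave all AK and cSCC and part of the NS. The labels did not say which NS was irradiated, which tissues shared a mouse or which grade an AK had, so every test treated tissues as independent although 8 AK came from 4 mice.

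The epidermis renews itself from a basal layer, and cells that leave it pass through spinous and granular layers before they form the cornified barrier. Transcription factors divide this work: p63, the product of Trp63, keeps the basal layer and commits cells to a stratified epithelium, and factors such as KLF4, GRHL1, GRHL3, ZNF750 (Zfp750) and BLIMP1 (Prdm1) act in cells that are differentiating. Their targets include the keratins, desmosomal proteins and barrier proteins of each layer.

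Total counts ranged from 775750 to 14055206 per library, and the 4 cSCC libraries stood apart from each other. Levels are given in CPM, that is, counts divided by the size of the library, with TMM factors that adjust these sizes for differences in composition. In cSCC 18, whose TMM factor of 0.509 raises its levels over those by library size alone, haemoglobin genes took 46.8% of the counts, against 0.0917% to 14.3% in NS and AK. In cSCC 20, a list of 12 lung genes led by the surfactant gene Sftpc took 4.14% of the counts, and in cSCC 21 a list of 12 heart muscle genes took 5.73%, while neither list took more than 0.013% in any NS or AK. The labels call all of these tissues skin. A list of 16 pan-epithelial genes, such as Cdh1, Dsp and Krt14, summed to 24470 CPM in cSCC 18, 22450 in cSCC 19, 7744 in cSCC 20 and 6570 in cSCC 21. The first pair of these lay within the NS range of 11700 to 25900 CPM, and the other pair below it. As a share of all counts without TMM, the list took 1.24% in cSCC 18, below the 1.29% to 2.56% of NS, and 2.56% in cSCC 19. Fold changes of the factors in cSCC are therefore also given without cSCC 20 and cSCC 21. In bulk tissue, fewer cells of a type and less RNA per cell cannot be told apart.

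**Figure D1:**
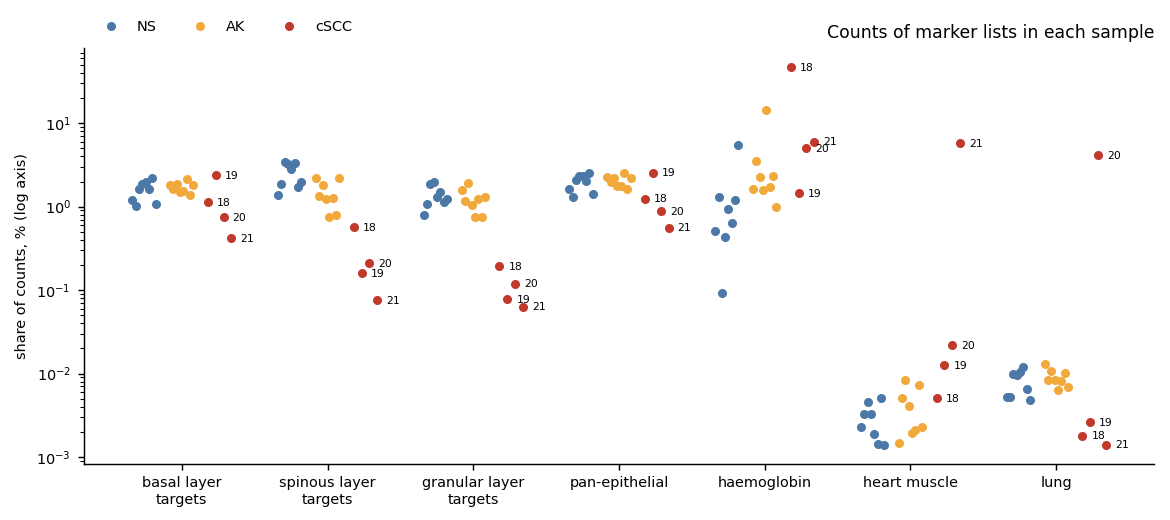
Share of each library's counts (%, log axis) taken by marker lists of the skin layers, of all epithelium and of other tissues, with 1 point per tissue and the cSCC tissues numbered. Heart muscle genes reached 5.73% in cSCC 21 and lung genes 4.14% in cSCC 20, and spinous and granular layer genes took a smaller share of the counts in the 4 cSCC than in any NS or AK.

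The ranges of NS and AK overlapped for all 10 factors, and most factors were lower in cSCC. A gene was called where edgeR's adjusted p-value was below 0.05 and the fold change was above 1.5 or below 0.67. Between AK and NS, 0 of 10 factors were called, while 4.64% of 11677 tested genes were called in either direction. Before adjustment, 3 factors had a p-value below 0.05, namely Trp63, Cebpa and Gata3. DESeq2 called 1 factor, Cebpa, beside 5.97% of 17761 genes, taken without the filter on low counts. With limma voom 1 was called, Gata3, beside 8.93% of the 11677 genes that passed that filter. In cSCC vs. NS, 5 of 10 factors were called lower (Grhl1, Zfp750, Prdm1, Cebpa and Klf4) and 0 higher, while 7.65% of 12097 tested genes were called lower and 11.7% higher. In cSCC vs. AK, 6 of 10 were called lower, the same 5 and Grhl3, and 0 higher, while 8.34% of 12032 tested genes were called lower and 16% higher. The log2 fold changes of all 10 factors were below 0 in both of these comparisons, which share the 4 cSCC tissues, although under the pan-epithelial scaling those of Ovol1 in both and of Hopx vs. AK were above 0, and that of Trp63 vs. NS was without cSCC 20 and cSCC 21. Their median was -1.64 vs. NS and -1.49 vs. AK, beside medians of 0.145 and 0.172 over all tested genes. In cSCC vs. NS, the 4 cSCC lay wholly below the 8 NS for 5 factors, as did 5.73% of tested genes, and in cSCC vs. AK for 4 factors, as did 6.84%. AK and NS were apart for 0 factors, beside 0.128% of tested genes lower and 0.394% higher in every AK.

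These counts moved with the scaling. With library size alone in place of TMM, 8 factors were called lower in each cSCC comparison, beside 11.5% of all genes vs. NS and 11.4% vs. AK. Scaled to the summed counts of the pan-epithelial genes in the same tissue, 3 factors were called lower in each (Grhl1, Zfp750 and Prdm1), beside 3.34% and 2.99% of all genes. Abundant genes weigh most in such a sum, and the list shares Krt5, Krt14 and Perp with the basal layer list. The pan-epithelial and basal sums were 24470 and 22160 CPM in cSCC 18, and 13470 and 9919 CPM in NS 1. This scaling is therefore not a measure of epithelial content alone. The median of all tested genes in cSCC vs. NS shifted from 0.145 with TMM to -0.185 with library size alone and to 0.7 with the pan-epithelial scaling. In cSCC vs. AK it shifted from 0.172 to -0.108 and to 0.875. Its values for AK vs. NS were -0.0368, -0.132 and -0.252. Genes called higher and lower in cSCC vs. NS numbered 1414 and 926 with TMM, 613 and 1392 with library size alone, and 2120 and 404 with the pan-epithelial scaling. In cSCC vs. AK they numbered 1931 and 1004, 990 and 1374, and 3935 and 360. Those of AK vs. NS numbered 264 and 278, 177 and 481, and 98 and 509. Without cSCC 20 and cSCC 21, 4 factors were called lower vs. NS and 5 vs. AK, beside 6.46% and 5.9% of all genes. In those fits 733 genes were called higher and 825 lower vs. NS, and 843 and 741 vs. AK. With library size alone and haemoglobin genes left out, 1019 genes were called higher and 1009 lower in cSCC vs. NS. In cSCC vs. AK these numbered 1485 and 1046. The medians of all tested genes were then 0.0211 and 0.0628.

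**Figure D2:**
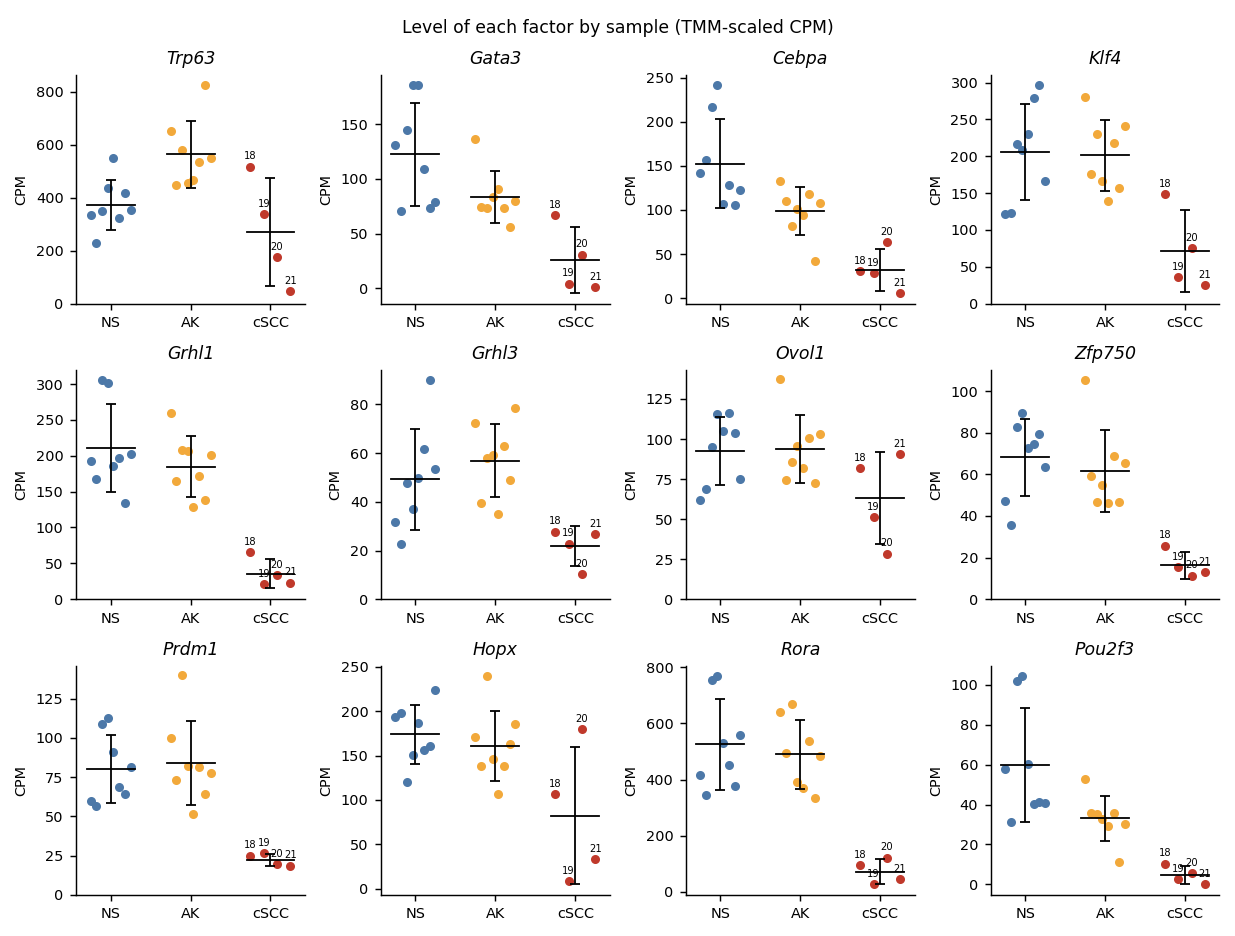
Level of each factor (TMM-scaled CPM) in every tissue, with the group mean as a long bar and the SD as a whisker, for 8 NS, 8 AK and 4 numbered cSCC. NS and AK overlap in every panel, and all 4 cSCC lie below every NS and AK tissue for Grhl1, Zfp750, Prdm1, Rora and Pou2f3.

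Trp63 encodes p63, the factor that defines the basal layer. The gene lies on chromosome 16 at 25683763 to 25892102 of GRCm38, on the + strand. NS ran from 230.3 to 549.9 CPM with a median of 353, and AK from 449 to 827 with a median of 542. All 8 AK were above the NS median and 3 were above the highest NS. Trp63 was 0.58 higher in AK on the log2 scale (SE 0.17), with an adjusted p of 0.0553. It was not called, and its fold change also fell just short of the fold limit. With DESeq2 the adjusted p of Trp63 was 0.0241 at a log2 fold change of 0.57, and only the fold limit withheld the call. With edgeR, Trp63 was called when NS 6 (0.68, adjusted p = 0.0347) or NS 8 (0.60, adjusted p = 0.0455) was left out. The 4 cSCC were at 518, 338, 175 and 48.0 CPM in cSCC 18, 19, 20 and 21. The first pair lay within the NS range, and the pair that carried lung and heart muscle genes lay below it. The log2 fold change of cSCC vs. NS was -0.43 (SE 0.45, adjusted p = 0.530), and without cSCC 20 and cSCC 21 it was 0.22 (adjusted p = 0.681). Against AK it was -0.99 (SE 0.44, adjusted p = 0.111), and -0.34 (adjusted p = 0.456) without that pair. Library size alone called Trp63 lower in cSCC vs. AK (-1.35, adjusted p = 0.0426), as did 1 fit of all 20 tissues (-1.07, adjusted p = 0.0435) and the fit without cSCC 18 (-1.56, adjusted p = 0.0205).

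Gata3, a zinc finger factor of epidermal and hair follicle differentiation, lies on chromosome 2 at 9857078 to 9890034, on the - strand. Its NS levels ran from 70.7 to 186 CPM (median 119.9) and its AK levels from 55.7 to 136 CPM (median 77.1). In AK, 7 of 8 tissues were below the NS median and 1 was below every NS. The log2 fold change of AK vs. NS was -0.57 (SE 0.22, adjusted p = 0.124). In cSCC 18 to 21 the levels were 66.7, 4.40, 30.7 and 1.32 CPM. All 4 were below every NS, and they spread over a 50.4-fold range among themselves. The levels of cSCC 19 and cSCC 21 rested on 10 and 8 counts. By library size alone, the highest was 34.8 CPM in cSCC 20, next to 33.9 in cSCC 18, and the lowest was 1.13 in cSCC 21. The log2 fold changes were -2.25 vs. NS (SE 0.76, adjusted p = 0.0507) and -1.68 vs. AK (SE 0.69, adjusted p = 0.0865), and neither was called. Of the 10 other settings in which Gata3 was tested, 6 called it lower vs. NS, DESeq2 (adjusted p = 0.0109) and limma voom (adjusted p = 0.00916) among them, and 3 vs. AK. Without cSCC 18 it was called in both (-3.52 and -2.99, adjusted p = 0.00747 and 0.0079), and without cSCC 20 and cSCC 21 in neither (-1.79 and -1.23, adjusted p = 0.123 and 0.203). Some exons of Gata3, Ovol1, Cebpa and Hopx overlap annotated transcripts of the opposite strand. The strand used in counting was not given in the sources used here, so reads of the 2 strands cannot be told apart for these genes.

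Cebpa encodes C/EBPα, a leucine zipper factor that restrains division in keratinocytes leaving the basal layer. It lies on chromosome 7 at 35119293 to 35121928, on the + strand. NS ran from 106 to 242 CPM with a median of 135, and AK from 42.0 to 133 with a median of 105. All 8 AK were below the NS median and 4 were below every NS, but the difference of -0.65 (SE 0.21) had an adjusted p of 0.0750. DESeq2 called it (-0.66, adjusted p = 0.041), as did the pan-epithelial scaling (-0.89, adjusted p = 0.041), a minimum of 10 counts in every tissue (-0.73, adjusted p = 0.0394) and the fit without NS 8 (-0.71, adjusted p = 0.0463). The cSCC levels were 30.6, 28.6, 63.7 and 5.46 CPM in cSCC 18, 19, 20 and 21. All 4 were below every NS, and 3 of 4 were below every AK. Cebpa fell by 2.23 on the log2 scale vs. NS (SE 0.51, adjusted p = 0.0092) and fell by 1.57 vs. AK (SE 0.47, adjusted p = 0.0267). Without cSCC 20 and cSCC 21 the values were -2.34 (adjusted p = 0.00487) and -1.67 (adjusted p = 0.0101). Under the pan-epithelial scaling neither was called (-1.68 and -0.80, adjusted p = 0.0617 and 0.259), and the call vs. AK was also lost without cSCC 19 (adjusted p = 0.0571).

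Klf4, a zinc finger factor needed for the skin barrier and made above the basal layer, lies on chromosome 4 at 55527143 to 55532466, on the - strand. NS ran from 122 to 297 CPM (median 213) and AK from 139.9 to 280.1 (median 197). The groups overlapped almost wholly, with 4 AK on each side of the NS median, and the log2 fold change was -0.047 (SE 0.19, adjusted p = 0.906). In cSCC the levels were 149, 36.0, 75.1 and 25.3 CPM. Of the 4 tissues, 3 were below every NS and every AK, and cSCC 18 was within both ranges. Klf4 fell by 1.49 on the log2 scale vs. NS (SE 0.44, adjusted p = 0.0311) and fell by 1.42 vs. AK (SE 0.39, adjusted p = 0.0186). The call vs. NS was lost in 7 of 12 fits that left out 1 tissue, namely NS 4, NS 5, NS 6, NS 7, cSCC 19, cSCC 20 or cSCC 21, with log2 fold changes of -2.16 to -1.21 over the 12. With cSCC 20 and cSCC 21 both left out, neither call held, at -1.14 vs. NS (adjusted p = 0.146) and -1.08 vs. AK (adjusted p = 0.104). The pan-epithelial scaling also removed both calls (-1.08 and -0.89, adjusted p = 0.0784 and 0.0888).

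Ovol1, a zinc finger repressor that helps keratinocytes stop dividing, lies on chromosome 19 at 5549136 to 5560646, on the - strand. It ran from 62.0 to 116 CPM in NS (median 99.4) and from 72.5 to 138 in AK (median 90.6). Its cSCC levels were 82.0, 51.4, 28.4 and 90.8 CPM. Of the 4 cSCC, 2 were within the NS and AK ranges and 2 were below both. Ovol1 was not called in any comparison with TMM, with log2 fold changes of 0.0053 for AK vs. NS (SE 0.16, adjusted p = 0.987), -0.49 for cSCC vs. NS (SE 0.31, adjusted p = 0.284) and -0.43 for cSCC vs. AK (SE 0.29, adjusted p = 0.301). Its direction in cSCC turned under the pan-epithelial scaling, to 0.18 vs. NS and 0.35 vs. AK. Library size alone called it lower vs. NS (-0.91, adjusted p = 0.0451), but not with haemoglobin genes left out as well (-0.65, adjusted p = 0.115). With TMM but without cSCC 20 and cSCC 21 it was -0.45 vs. NS and -0.44 vs. AK (adjusted p = 0.355 and 0.307).

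Grhl1, Zfp750 and Prdm1, which act late in differentiation, fell in cSCC under every setting run. Grhl1, a grainyhead factor that acts on desmosomal cadherin genes, lies on chromosome 12 at 24572283 to 24617391, on the + strand. It ran from 134 to 305 CPM in NS (median 195) and from 128 to 259.8 in AK (median 187), and stood at 65.3, 20.6, 34.1 and 23.3 CPM in cSCC 18 to 21. The highest cSCC was below the lowest NS and the lowest AK. Grhl1 fell by 2.51 on the log2 scale vs. NS (SE 0.37, adjusted p = 0.0015) and fell by 2.28 vs. AK (SE 0.32, adjusted p = 0.00162). Zfp750, whose product ZNF750 acts with p63 and KLF4 to start terminal differentiation, lies on chromosome 11 at 121510978 to 121519333, on the - strand. It ran from 35.6 to 89.3 CPM in NS (median 73.6) and from 46.1 to 105 in AK (median 56.9), and stood at 25.7, 15.4, 11.4 and 12.9 CPM in cSCC. Again no cSCC reached the NS or AK range. Zfp750 fell by 2.01 vs. NS (SE 0.32, adjusted p = 0.00185) and fell by 1.81 vs. AK (SE 0.30, adjusted p = 0.00248).

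Prdm1 encodes BLIMP1, a zinc finger repressor of the granular layer and of sebaceous gland cells, and lies on chromosome 10 at 44437177 to 44528501, on the - strand. NS ran from 56.8 to 113 CPM (median 74.9) and AK from 51.6 to 140.0 (median 79.5). The cSCC levels were 25, 26.4, 19.3 and 18.5 CPM. These 4 were within a 1.42-fold range, the narrowest cSCC range of the 10 factors, and all were below every NS and AK. Prdm1 fell by 1.79 on the log2 scale vs. NS (SE 0.27, adjusted p = 0.00167) and fell by 1.78 vs. AK (SE 0.28, adjusted p = 0.00219). Between AK and NS the log2 fold changes were -0.21 for Grhl1, -0.15 for Zfp750 and 0.035 for Prdm1, with adjusted p-values of 0.499, 0.67 and 0.932, and that of Prdm1 turned below 0 with library size alone (-0.072) and the pan-epithelial scaling (-0.17). In the cSCC comparisons, Grhl1, Zfp750 and Prdm1 were called under all 11 other settings run and in all 12 fits that left out 1 tissue. Among the settings, that without a fold limit reused the main fit, so it could not remove a call. Under the pan-epithelial scaling their log2 fold changes vs. NS were -2.09 for Grhl1, -1.54 for Zfp750 and -1.29 for Prdm1 (adjusted p = 0.0097, 0.0147 and 0.0397). With cSCC 20 and cSCC 21 left out they were -2.29, -1.72 and -1.62 (adjusted p = 0.0106, 0.0163 and 0.0123), and vs. AK -2.07, -1.54 and -1.62 (adjusted p = 0.00642, 0.0146 and 0.0101). Sebaceous gland markers moved with Prdm1 in part. Of 9 tested, 3 were called lower in cSCC vs. NS and 4 in cSCC vs. AK, beside 7.65% and 8.34% of all tested genes. The summed level of these markers was 691 to 3620 CPM in cSCC, beside 1010 to 4040 in NS and 3030 to 4330 in AK. Of 7 markers of B and plasma cells, of which plasma cells also make Prdm1, 1 was tested in cSCC vs. NS and 3 in cSCC vs. AK, and 0 were called. The part of other cell types in the fall of Prdm1 was not tested.

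Grhl3, the grainyhead paralog of Grhl1 that acts in barrier formation and wound closure, lies on chromosome 4 at 135541888 to 135573630, on the - strand. It ran from 22.6 to 90.1 CPM in NS (median 48.7) and from 35.0 to 78.4 in AK (median 58.6), and stood at 27.8, 22.8, 10.2 and 26.6 CPM in cSCC. All 4 cSCC were below every AK, but only 1 was below every NS. In cSCC 20, its level rested on 9 counts. Grhl3 fell by 1.22 on the log2 scale vs. AK (SE 0.31, adjusted p = 0.0121), a call that was lost with limma voom (-1.35, adjusted p = 0.0974) and with the pan-epithelial scaling (-0.54, adjusted p = 0.322) but held without cSCC 20 and cSCC 21 (-1.10, adjusted p = 0.0404). Vs. NS the log2 fold change was -1.09 (SE 0.37, adjusted p = 0.0532), which 5 of 10 other settings called, DESeq2 among them (-1.08, adjusted p = 0.0341), as did fits without NS 2 (-1.20, adjusted p = 0.0326) or cSCC 18 (-1.21, adjusted p = 0.04995). It was -0.94 without cSCC 20 and cSCC 21 (adjusted p = 0.185). Between AK and NS it was 0.19 (SE 0.23, adjusted p = 0.640).

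Hopx, a homeodomain protein without DNA binding of its own that is found in upper epidermis and in hair follicle stem cells, lies on chromosome 5 at 77086988 to 77115121, on the - strand. It ran from 120.1 to 224 CPM in NS (median 174) and from 107 to 239.6 in AK (median 155). Its cSCC levels were 107, 8.79, 179.8 and 33.4 CPM, a 20.5-fold range. The highest was cSCC 20, the tissue with lung genes, while cSCC 21, the tissue with heart muscle genes, stood at 33.4 CPM. The log2 fold change was -0.13 in AK vs. NS (SE 0.16, adjusted p = 0.650), -1.03 in cSCC vs. NS (SE 0.54, adjusted p = 0.199) and -0.88 vs. AK (SE 0.53, adjusted p = 0.235). Without cSCC 20 Hopx was called lower in both, at -1.79 (adjusted p = 0.0364) and -1.62 (adjusted p = 0.0403), and limma voom called it vs. NS (-1.95, adjusted p = 0.0481), whereas the pan-epithelial scaling turned it to 0.041 vs. AK (adjusted p = 0.964). With cSCC 21 left out as well it was called in neither (-1.58 and -1.45, adjusted p = 0.108 and 0.123). The part of lung or heart muscle RNA in the cSCC levels of Hopx was not tested.

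**Figure D3:**
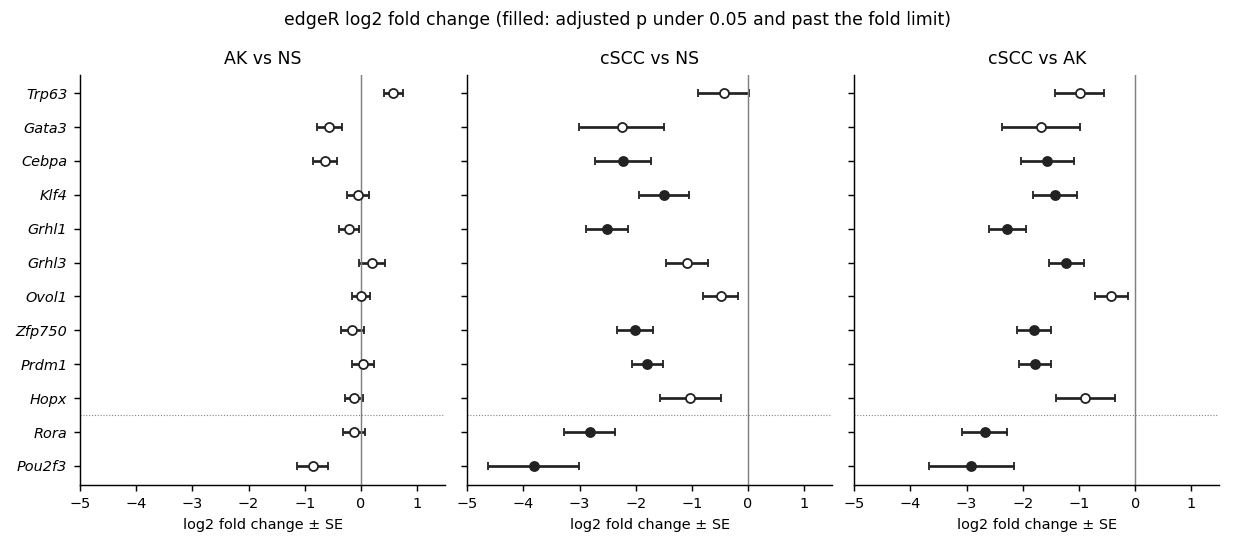
edgeR log2 fold change ± SE of each factor in the 3 comparisons of groups, with filled points where the gene was called and Rora and Pou2f3 below the dotted line. AK vs. NS has 0 filled points, and all points of the other panels lie below 0, a direction that Ovol1 in both and Hopx vs. AK do not keep under the pan-epithelial scaling.

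Rora and Pou2f3 also fell in cSCC. Rora, a nuclear receptor that binds DNA as a monomer, ran from 344 to 769 CPM in NS (median 491) and from 336 to 669.7 in AK (median 489.6), and stood at 93.8, 26.4, 122 and 44.8 CPM in cSCC. No cSCC reached the NS or AK range. Rora fell by 2.82 on the log2 scale vs. NS (SE 0.45, adjusted p = 0.00171) and fell by 2.68 vs. AK (SE 0.40, adjusted p = 0.00194). Pou2f3, a POU factor of suprabasal keratinocytes, ran from 31.0 to 104 CPM in NS (median 49.3) and from 11.4 to 52.8 in AK (median 34.1). It stood at 10.4, 2.64, 5.69 and 0 CPM in cSCC, where the 0 counts of cSCC 21 allow up to 0.496 CPM (3 counts, counting error only) and the 5.69 CPM of cSCC 20 rest on 5 counts. In AK, 7 of 8 tissues were below the NS median of Pou2f3 and 3 were below every NS, but the difference of -0.86 (SE 0.28) had an adjusted p of 0.0700. Pou2f3 was called in this comparison under 5 of 10 other settings, namely DESeq2 (-0.88, adjusted p = 0.0326), limma voom (-0.85, adjusted p = 0.0387), library size alone (-0.97, adjusted p = 0.049), at least 10 counts in every tissue (-0.95, adjusted p = 0.0384) and the pan-epithelial scaling (-1.06, adjusted p = 0.0311), and without NS 8 or AK 10 (adjusted p = 0.0495 and 0.0411). In cSCC it fell by 3.82 vs. NS (SE 0.81, adjusted p = 0.00703) and fell by 2.92 vs. AK (SE 0.76, adjusted p = 0.0144). Rora and Pou2f3 were called in both cSCC comparisons under every setting in which they were tested, 11 for Rora and 10 for Pou2f3. These counts include the setting without a fold limit, which could not remove a call. Without cSCC 20 and cSCC 21, Rora stood at -3.12 vs. NS and -2.99 vs. AK (adjusted p = 0.00522 and 0.00225), and Pou2f3 at -3.24 and -2.36 (adjusted p = 0.0107 and 0.0173).

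The DNA before the start of the genes that fell in both cSCC comparisons is shown for reference, since these are the members the comparison turns on. RefSeq's promoters on GRCm38.p6 were matched by symbol, and 7 of the 10 members matched, with 9 promoters. Trp63, Ovol1, Zfp750 and Pou2f3 had no entry. Each line gives the 250 bases before a start site, 5′ to 3′ on the gene's own strand. Capitals mark matches on either strand to CACCC (the core of KLF sites, GGGTG on the other strand) or to GGGCGG (the GC box, CCGCCC on the other strand). The Klf4 window is chr4:55532476-55532725, where no gene is annotated. The Cebpa window is chr7:35119043-35119292, in an intron of the antisense transcript Gm45091. The Grhl1 window is chr12:24572037-24572286, whose last bases reach into the first annotated exon of Grhl1, and the Prdm1 window is chr10:44458749-44458998, in an intron of Prdm1.
Klf4: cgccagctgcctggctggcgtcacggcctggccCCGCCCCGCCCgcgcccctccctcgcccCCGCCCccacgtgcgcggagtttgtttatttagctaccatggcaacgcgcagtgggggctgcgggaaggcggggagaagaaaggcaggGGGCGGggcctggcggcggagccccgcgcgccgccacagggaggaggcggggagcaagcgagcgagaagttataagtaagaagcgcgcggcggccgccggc
Cebpa: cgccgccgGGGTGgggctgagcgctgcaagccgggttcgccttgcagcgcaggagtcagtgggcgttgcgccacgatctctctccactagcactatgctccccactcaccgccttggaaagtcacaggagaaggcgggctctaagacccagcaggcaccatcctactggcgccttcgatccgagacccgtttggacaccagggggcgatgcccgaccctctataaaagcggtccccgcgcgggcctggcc
Grhl1: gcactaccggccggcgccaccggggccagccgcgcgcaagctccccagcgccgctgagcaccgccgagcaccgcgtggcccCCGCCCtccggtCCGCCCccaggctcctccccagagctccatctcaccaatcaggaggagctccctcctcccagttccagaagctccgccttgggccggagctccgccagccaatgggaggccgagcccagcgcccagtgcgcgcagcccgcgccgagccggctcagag
Prdm1: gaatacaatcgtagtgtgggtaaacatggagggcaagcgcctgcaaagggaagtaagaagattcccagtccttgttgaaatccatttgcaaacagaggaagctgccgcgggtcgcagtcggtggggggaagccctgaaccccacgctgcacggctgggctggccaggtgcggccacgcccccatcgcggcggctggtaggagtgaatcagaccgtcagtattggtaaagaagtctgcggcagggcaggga

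The Klf4 window held 4 matches to the GC box, of which the first pair shares a base, and the Grhl1 window held 2. The Cebpa window held 1 match to CACCC and the Prdm1 window held neither motif. CACCC was found in 4 of the members' 9 promoters, counted over 300 bases that include 50 after the start, and in 57.5% of 32851 RefSeq promoters of the same length. GGGCGG was found in 4 of 9, beside 35.7% of all. ATGCAAA, part of the octamer that POU factors bind (TTTGCAT on the other strand), was found in 1 of 9, a second start of Grhl1, beside 4.63% of all. AGGTCA, which ROR receptors bind (TGACCT on the other strand), ACCGGT, the core of grainyhead sites, which reads the same on both strands, and AGATAA, bound by the GATA factors (TTATCT on the other strand), were found in 0 of 9, beside 16.3%, 2.33% and 11.2% of all. The letters do not show that a factor binds there, and their lack in this window says nothing of sites elsewhere. Over the 300 bases, G and C made up 75.3% of the first Grhl1 promoter, 74.3% of Klf4, 67.3% of Cebpa and 59.7% of Prdm1. The median over all promoters was 52.7%.

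Genes of the layers in which the factors act were set beside them. Of 8 spinous layer genes, 7 were called lower in cSCC vs. NS and 0 higher, while 7.65% of all tested genes were called lower and 11.7% higher. Krt10, a keratin of the spinous layer, fell by 4.05 on the log2 scale (SE 0.92, adjusted p = 0.0092), and Dsg1a, a desmosomal cadherin, fell by 3.79 (SE 0.81, adjusted p = 0.00709). Of 14 granular layer genes, 8 were called lower and 0 higher. Flg2 and Lor, which encode proteins of the cornified envelope, fell by 7.33 (SE 1.36, adjusted p = 0.00387) and fell by 6.35 (SE 0.78, adjusted p = 0.000558). Of 10 basal layer genes, 2 were called higher and 1 lower, beside those 11.7% and 7.65% of all tested genes. Lamb3, a chain of laminin-332, was 2.24 higher (SE 0.51, adjusted p = 0.00911), the Notch ligand Jag2 was 1.32 higher (SE 0.37, adjusted p = 0.0252), and Dst, a hemidesmosomal plakin, fell by 1.51 (SE 0.37, adjusted p = 0.0137). These values vs. NS without cSCC 20 and cSCC 21 were -3.29 for Krt10, -3.18 for Dsg1a, -6.97 for Flg2, -5.94 for Lor, 2.99 for Lamb3 and 1.62 for Jag2, all called, and -1.13 for Dst, which was not called (adjusted p = 0.102). The medians of the 3 lists were -2.43, -2.68 and 0.385. The difference between these lists was not tested.

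Against AK, 5 of 8 spinous layer genes were called lower and 0 higher, led by Dsg1a (-3.82, SE 0.77) and Krt10 (-3.12, SE 0.90). Of 14 granular layer genes, 9 were called lower and 0 higher, led by Flg2 (-5.25, SE 0.91) and Hrnr (-4.92, SE 1.01). Of 10 basal layer genes, Lamb3 (2.15) and Jag2 (1.47) were called higher, and Perp (-1.26) and Dst (-0.93) lower. Over all tested genes, 16% were called higher and 8.34% lower vs. AK. Without cSCC 20 and cSCC 21, 3 of 8 spinous layer genes were called lower vs. NS and 1 of 8 vs. AK. For granular layer genes these were 8 of 14 and 7 of 14, and over all genes 6.46% and 5.9%. Without that pair, basal layer genes called higher numbered 2 of 10 vs. NS and 4 of 10 vs. AK, and 0 were called lower. Over all tested genes, 733 of 12762 and 843 of 12567 were called higher. Of the genes named vs. AK, Krt10 (-2.37, adjusted p = 0.127), Perp (-0.69, adjusted p = 0.225) and Dst (-0.58, adjusted p = 0.0933) were then no longer called. The summed level of the spinous list was 11110, 1398, 1853 and 894 CPM in cSCC 18 to 21. It was 11300 to 33100 CPM in NS and 7630 to 23100 in AK, so that cSCC 18 lay within the AK range. That of the granular list was 3808, 679.8, 1050 and 741 CPM, beside 6480 to 18800 in NS and 7320 to 21100 in AK. In both lists cSCC 18 was the highest of the 4, also as a share of all counts without TMM (0.565% and 0.194%).

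In AK vs. NS, 0 of 10 basal and 0 of 8 spinous layer genes were called, beside 4.64% of all tested genes in either direction. Of 14 granular layer genes, 2 were called lower, Flg2 (-2.12, SE 0.49, adjusted p = 0.0238) and Lor (-1.71, SE 0.34, adjusted p = 0.017). Whether targets and factors differed in AK was not tested.

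Of 18 other transcription factors of epidermis, 16 were tested. None was called in AK vs. NS, beside 4.64% of all tested genes in either direction. In cSCC vs. NS, 4 were called lower and 1 higher, beside 7.65% and 11.7% of all tested genes. Dlx3, a homeobox factor of terminal differentiation and hair, fell by 2.98 (SE 0.62, adjusted p = 0.00658), from 24.3 ± 13.8 CPM (SD, n = 8) to 2.74 ± 2.40 (SD, n = 4). The POU factor Pou3f1 fell by 2.80 (SE 0.78, adjusted p = 0.0236), from 34.7 ± 11.9 CPM to 5.21 ± 6.02. Elf3, an ETS factor of epithelia, was 2.62 higher (SE 0.67, adjusted p = 0.0156), at 18.2 ± 6.19 CPM in cSCC beside 3.08 ± 2.15 in NS. In cSCC vs. AK, 5 were called lower and 1 higher, beside 8.34% and 16% of all tested genes. Those lower were again led by Dlx3 (-2.76) and Pou3f1 (-2.20, adjusted p = 0.0485). The 1 higher was Tead1, the DNA binding partner of YAP (0.79, SE 0.26, adjusted p = 0.0416). The median of the factors tested from this list was -0.783 vs. NS and -0.820 vs. AK, nearer to 0 than that of the 10 factors. Leaving out cSCC 20 and cSCC 21, 3 of 17 tested were called lower vs. NS and 2 of 17 vs. AK, beside 6.46% and 5.9% of all genes. Dlx3 was among those called in both (-2.77 and -2.60) and Elf3 was still called higher vs. NS (2.66). Pou3f1 was called lower vs. NS (-2.02, adjusted p = 0.0339) but not vs. AK (-1.44, adjusted p = 0.0936). Tead1 was not called vs. AK (0.11, adjusted p = 0.819).

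**Figure D4:**
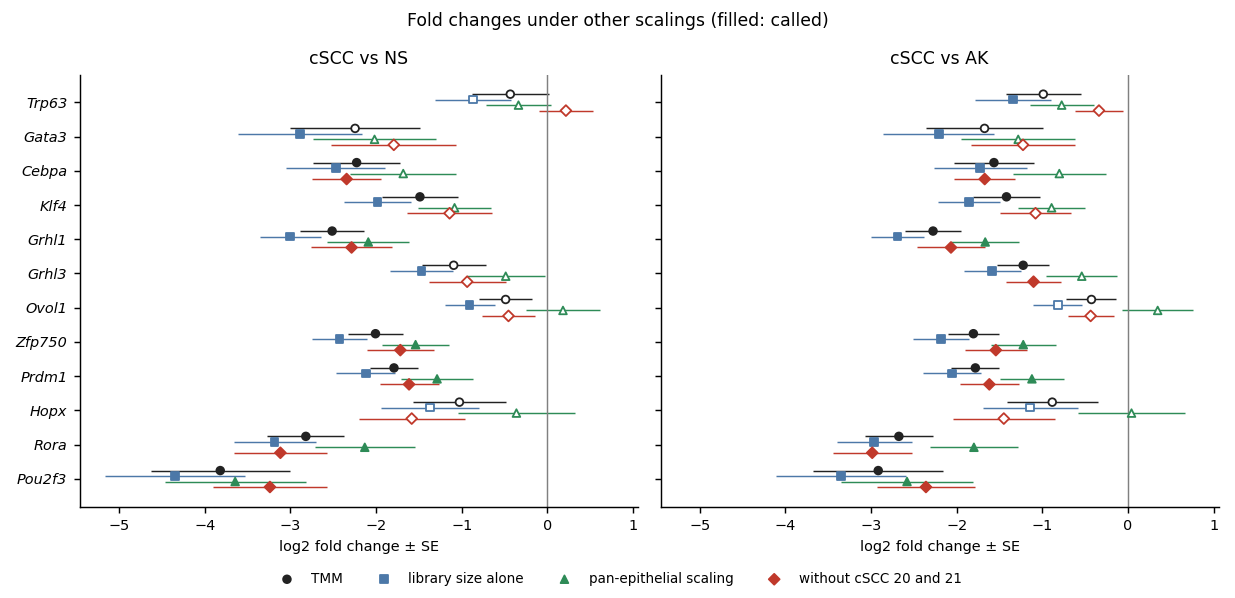
Log2 fold change ± SE of each factor in cSCC vs. NS and cSCC vs. AK with TMM, with library size alone, with the pan-epithelial scaling and without cSCC 20 and cSCC 21; filled marks were called. Grhl1, Zfp750, Prdm1, Rora and Pou2f3 are filled under all 4, and under the pan-epithelial scaling Ovol1 in both panels and Hopx vs. AK lie above 0.

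Some markers of epithelium as a whole and of other cell types also differed in cSCC, and others did not. Over all tested genes, 11.7% were called higher and 7.65% lower vs. NS, and 16% and 8.34% vs. AK. Of the 16 pan-epithelial genes, which also served for scaling, 5 were called lower and 2 higher vs. NS (median -0.957), and 6 lower and 1 higher vs. AK (median -1.02). They included Ppl, a desmosomal plakin (-2.49 vs. NS, SE 0.38), and Esrp1, an epithelial splicing regulator (-1.96, SE 0.41), both lower, and Sfn, which encodes 14-3-3 sigma, was 1.54 higher (SE 0.41). Leaving out that pair of tissues, cSCC 20 and cSCC 21, 4 were called lower and 2 higher vs. NS, and 3 and 2 vs. AK. Endothelial markers were called higher in 11 of 12 tested vs. NS and 12 of 12 vs. AK, with a summed level of 154 to 1070 CPM in cSCC beside 49.3 to 143 in NS. Heart muscle markers were called higher in 7 of 8 tested vs. NS (99.3 to 67200 CPM in cSCC, 13.4 to 51.1 in NS), lung markers in 4 of 5 (16.5 to 36500 and 43.3 to 121) and haemoglobin genes in 4 of 4. The heart muscle and lung ranges reached their top in cSCC 21 and cSCC 20. Without these tissues, 0 of 12 endothelial, 2 of 8 heart muscle, 0 of 5 lung and 4 of 4 haemoglobin genes were called higher vs. NS. Of 10 fibroblast genes, 0 were called vs. NS and 1 higher vs. AK, and of 9 macrophage genes 2 were called higher vs. NS. Of 6 T cell genes, 1, Cd3g, was called lower vs. NS. Skeletal muscle genes were called lower in 6 of 10 vs. NS, and adipocyte genes in 0 of 8. The part of these cells in the levels of the factors was not tested.

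Ratios within a tissue set 1 factor against another, with the library total left in only through the pseudocount. The Grhl3 to Grhl1 ratio, as a difference of log2(CPM + 1), had a mean ± SD of -2.13 ± 0.80 over the 8 NS, -1.70 ± 0.24 over the 8 AK and -0.63 ± 0.93 over the 4 cSCC. In cSCC it stood at -1.20, 0.139, -1.64 and 0.184, so that Grhl3 and Grhl1 were about level in cSCC 19 and cSCC 21 and apart in the others. The ratio was 1.5 higher in cSCC than in NS and 1.07 higher than in AK, each with p = 0.0242 in a two-sided exact permutation test over 495 splits and an adjusted p of 0.0484 over 6 ratio tests. Both were near the threshold, and with library size alone each had an adjusted p of 0.0566 (exact permutation test). With 1 tissue left out the difference stayed between 1.23 and 1.84 vs. NS and between 0.79 and 1.40 vs. AK. Leaving out 1 tissue removed the call vs. NS in 10 of 12 cases, all but NS 8 and cSCC 20, and the call vs. AK in 8 of 12, namely AK 10 to AK 14, cSCC 18, cSCC 19 and cSCC 21. Without cSCC 20 and cSCC 21 it was 1.60 vs. NS and 1.17 vs. AK, with adjusted p = 0.107 and 0.0888 (exact permutation test). Between AK and NS the ratio differed by 0.43 (adjusted p = 0.204, exact permutation test), and without NS 8 by 0.66 (adjusted p = 0.0262, exact permutation test).

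The Klf4 to Trp63 ratio, which sets a suprabasal factor against the basal one, had a mean ± SD of -0.89 ± 0.41 over the 8 NS, -1.49 ± 0.40 over the 8 AK and -1.77 ± 1.02 over the 4 cSCC. It was 0.60 lower in AK than in NS on the log2 scale (difference -0.60, p = 0.00497, adjusted p = 0.0298, two-sided exact permutation test over 12870 splits). The means behind it were 375 CPM in NS and 565 in AK for Trp63, and 206 and 201 CPM for Klf4. The call was lost in 6 of 16 cases that left out 1 tissue, namely NS 2, NS 4, NS 5, NS 7, AK 13 or AK 14. In cSCC the ratio was -1.79, -3.19, -1.21 and -0.896, of which the lowest was below every NS and AK and the highest was within the NS range and above every AK. It differed by -0.88 from NS (adjusted p = 0.103) and by -0.28 from AK (adjusted p = 0.505), both by exact permutation tests.

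**Figure D5:**
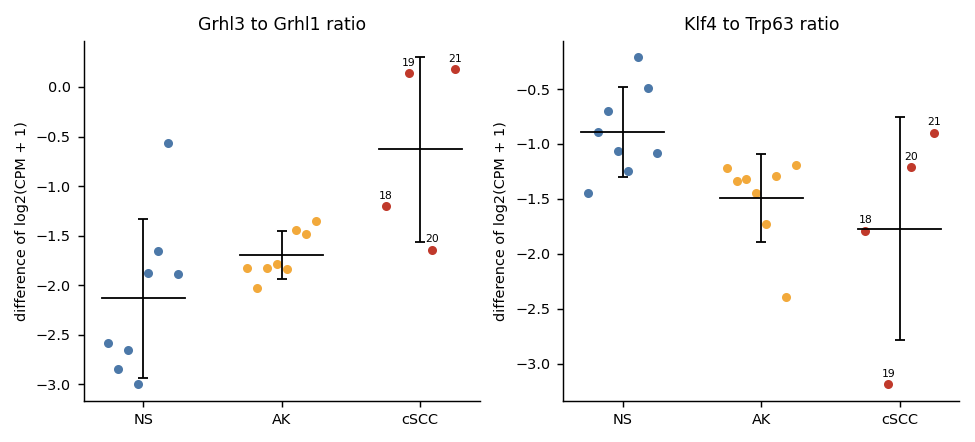
Grhl3 to Grhl1 and Klf4 to Trp63 ratio in each tissue, as the difference of log2(CPM + 1), with group mean (long bar) and SD (whisker) for 8 NS, 8 AK and 4 numbered cSCC. The Grhl3 to Grhl1 ratio is near 0 in cSCC 19 and cSCC 21, and the Klf4 to Trp63 ratio is lower in AK than in NS.

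Levels were also set per kilobase of annotated exon, over the union of all annotated exons of a gene. This length can exceed that of the transcripts made, so the order of medians below is only approximate. In NS, Hopx had the highest median level, 115 CPM per kilobase, followed by Klf4 with 69.7, Cebpa with 51.4, Trp63 with 42.1 and Grhl1 with 35.2. Gata3 (30.2), Ovol1 (28.5), Zfp750 (22.8), Grhl3 (17.5) and Prdm1 (13.4) followed. The ranges of neighbours in this order overlapped in every case. Hopx, for example, ran from 79.2 to 148 and Klf4 from 40.1 to 97.4 CPM per kilobase. In AK, Trp63 (64.5) and Klf4 (64.6) were level. In cSCC, Hopx (46.3, range 5.8 to 119) and Trp63 (30.5, range 5.72 to 61.8) had the highest medians. Prdm1 (3.97), Zfp750 (4.37) and Gata3 (4.41) had the lowest.

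Over the 16 NS and AK tissues, the factors fell into partly separate patterns. These correlations are descriptions over tissues that share mice and differ in depth. Of 45 pairs of factors, 35 had a Pearson r above 0, with a median of 0.305 over all 16, 0.409 within NS and 0.581 within AK. The highest was Klf4 with Ovol1 (r = 0.853), followed by Ovol1 with Zfp750 (0.838) and Klf4 with Grhl3 (0.821). The lowest was Trp63 with Cebpa (-0.637). Within NS alone that pair had r = -0.192 and within AK r = -0.637. Some pairs turned between the groups, such as Prdm1 with Hopx (-0.536 in NS, 0.843 in AK) and Klf4 with Grhl1 (-0.033 and 0.842), whereas Klf4 with Ovol1 stayed high in both (0.906 and 0.777). Prdm1 (0.884) and Grhl1 (0.834) followed Rora, and Cebpa (0.883) and Gata3 (0.847) followed Pou2f3.

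Among 8598 genes with a mean of at least 10 CPM in NS and AK, the genes most like each factor over the 16 tissues were found by the same r. Those most like Prdm1 were Dsg1a (0.910), Yod1 and Hrnr (both 0.889), of which Dsg1a and Hrnr are on the spinous and granular lists. Those most like Grhl1 were Ssfa2 (0.948), Map2 and Mfsd6. Those most like Trp63 were Polr2b (0.917), a subunit of RNA polymerase II, Gja1 (0.914), a connexin, and Morc3. Cebpa was followed by Slc22a23 (0.943), Trim29 and Acer1, a ceramidase of the epidermis. Klf4 was followed by Obfc1 (0.896), Trex2 and Cyp2b10, and Grhl3 by Phlda2 (0.866), Obfc1 and Utp6. Zfp750 was followed by Il1rl2 (0.905), an interleukin-36 receptor chain, and Ovol1 by Rasgef1b (0.870) and Calm4. Gata3 was followed by Slc6a8 (0.910), Ankrd11 and Edaradd, an adaptor of the ectodysplasin receptor. Hopx had no gene above 0.811 (Fam175b).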

How the data were processed

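RNA-seq of 8 NS, 8 AK and 4 cSCC tissues was used, grouped by the labels. The authors deposited raw counts per gene symbol without normalization. Their methods name Trimmomatic, HISAT2, GRCm38 and StringTie, whereas the submitters' processing notes name Trimmomatic 0.36, HISAT2 2.0.5, featureCounts 1.5.2 and the builds hg19 and mm9. The labels also differ from the methods on the sequencing instrument. The strand used in counting is not given in the sources used here. Totals ranged from 775750 to 14055206 counts, and 3 counts, taken as the limit for a gene at 0, came to 3.41 CPM in the smallest library (counting error only).

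CPM used TMM factors over the 20 samples. Each comparison used its own samples, filterByExpr and the quasi-likelihood test of edgeR 4.0.16 in R 4.3.3, with Benjamini-Hochberg adjustment over all genes tested. SE is the size of the log2 fold change divided by the square root of F. The test was checked on simulated counts. Ratios were tested by exact permutation (scipy 1.17.1) with a pseudocount of 1 CPM. The named genes were the 10 members, Rora, Pou2f3, the 2 called genes of each layer or factor list with the largest change in each direction, and the 3 genes most like each member. Cd3g was named after its value was seen. The members and lists were chosen with earlier results of these data known. Alternatives were DESeq2 1.42.0, pan-epithelial scaling, limma 3.58.1 voom weighted by sample quality, library size without TMM, other count filters, no fold limit, all 20 samples in 1 fit, a pseudocount of 0.1, each sample left out and cSCC 20 and cSCC 21 left out. The setting without a fold limit reused the main fit with a looser rule, so it could add calls but not remove them. Leaving out haemoglobin genes, and recounting the lists under other settings, were added after the data were seen. Coordinates and exon lengths are from GENCODE M21 on GRCm38, and promoters from RefSeq on GRCm38.p6.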

Additional observations from a re-analysis of the deposited data

Results flagged for a closer look

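Of 42 groups of values tested for a sample far from the rest of its group (12 genes and 2 ratios in 3 groups), 4 held one, and chance alone flags about 1 in 20 groups. Of these, 3 were the same library, AK 10, the deepest of all: its Zfp750 level was 105 CPM where the next highest AK was at 68.7, its Gata3 level was 136 CPM where the next was at 90.8, and its Ovol1 level was 138 CPM where the next was at 103. The last was the Klf4 to Trp63 ratio of AK 16, at -2.39 on the log2 scale where the next lowest AK was at -1.73. Leaving out AK 10 or AK 16 changed no call of these 3 genes or of this ratio.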

How the results depend on the processing

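In AK vs. NS, 1 factor was called with at least 10 counts in every sample, with the pan-epithelial scaling, with DESeq2 and with limma voom, and 0 to 2 when 1 sample was left out. In cSCC vs. NS, library size alone called 8 factors and the pan-epithelial scaling 3, beside 5, and the pan-epithelial scaling called 3 in cSCC vs. AK, beside 6. The sign of 2 small AK vs. NS differences turned: Ovol1 and Prdm1 stood at -0.082 and -0.072 with library size alone, -0.082 and -0.064 with at least 10 counts in every sample, -0.16 and -0.17 with the pan-epithelial scaling, -0.014 and -0.096 with limma voom, -0.051 and -0.046 with library size alone without haemoglobin genes, and Ovol1 at -0.0069 with TMM without them. When 1 sample was left out, Ovol1 ranged from -0.091 to 0.065, Prdm1 from -0.10 to 0.12 and Klf4 from -0.13 to 0.044 in AK vs. NS. In cSCC, the pan-epithelial scaling turned Ovol1 (0.18 vs. NS, 0.35 vs. AK) and Hopx vs. AK (0.041), and leaving out cSCC 20 and cSCC 21 turned Trp63 vs. NS (0.22). The Grhl3 to Grhl1 ratio in cSCC vs. NS and vs. AK was no longer called with a pseudocount of 0.1 (1.5 and 1.06), library size alone (1.51 and 1.07) or without cSCC 20 and cSCC 21 (1.60 and 1.17). With 1 sample left out it ranged from 1.23 to 1.84 vs. NS, 0.79 to 1.40 vs. AK and 0.31 to 0.66 in AK vs. NS, and the Klf4 to Trp63 ratio from -0.68 to -0.47 in AK vs. NS and from -0.57 to 0.19 in cSCC vs. AK. Apart from fewer samples where samples were left out, the cause of these changes was not tested. Of 858 recomputed gene values, 774 kept their direction and their side of the threshold, 16 lost a call, 39 gained one and 29 turned. Of 96 recomputed ratio differences, 64 kept both, 30 lost a call, 1 gained one and 1 turned. Counts of called factors stayed within 1.5 times in 63 of 72 cases and those of the layer and factor lists in 41 of 64. No paired analysis was possible because the groups share no replicate number and the labels name no mouse. Shallow cSCC 20 limits precision, with 9 counts of Grhl3 and 10 of Zfp750. Gata3 had as few as 10 counts in cSCC 19 and 8 in cSCC 21.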
